A study of Sus scrofa with 10 samples.

Results

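The long noncoding RNAs (lncRNAs) described here are those whose listed start lies between 20000000 and 35000000 on pig chromosome 7, the stretch that holds the major histocompatibility complex. Of the 5946 lncRNAs measured, 52 met this rule, and 13 of them started between 22 and 26 Mb, where the swine leukocyte antigen (SLA) genes lie. The rule used position alone and no expression value. Blood of 10 healthy female Qingyu pigs had been sequenced after removal of ribosomal RNA, with 2 pigs at each of 5 ages. These were D0 (newborn), D7 and D28 (7 and 28 days of age), D180 (180 days) and Y2 (2 years). Every library came from a different animal, none had been treated, and whole blood was taken, so red cells were part of every sample. The 6 libraries of D0, D7 and D28 are called the suckling period, and the 4 of D180 and Y2 the late period. Nothing in the labels says whether pigs of one age shared a litter, so a p-value speaks only for these pigs.

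The major histocompatibility complex is a dense block of immune genes. Class I molecules are made by nearly all nucleated cells and show peptides from inside the cell to CD8+ T cells. Class II molecules are made by B cells, monocytes, dendritic cells and some other cells, and show peptides from taken-up material to CD4+ T cells. The class III genes between them encode complement components, cytokines of the tumour necrosis factor family and many housekeeping proteins. The class II stretch also holds the genes for the peptide transporter TAP and for proteasome subunits that cut the peptides for class I. In pigs the complex is split by the centromere of chromosome 7, with class I and III on the short arm and class II on the long arm.

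The region was crowded with coding genes: RefSeq places 346 protein-coding genes at 20 to 35 Mb and 163 at 22 to 26 Mb on the same build, Sscrofa11.1. A protein-coding gene lay within 100 kb of each of the 52 lncRNAs, 30 overlapped one, and 42 overlapped a RefSeq gene of any kind. At 22 to 26 Mb, 11 of the 13 overlapped a protein-coding gene. The plus strand carried 25 and the minus strand 27, but the RefSeq table used here gives no strand, so sense and antisense to the host gene are not stated. Overlapping spans on one strand were merged, which left 46 loci, and 10 of the lncRNAs shared a locus with another one.

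The listed spans had a median of 695 nt, from 32 to 100838 nt, beside 860 nt for all other lncRNAs. Spans under 200 nt belonged to 10 of the 52, although the study kept transcripts of over 200 nt, so that for these the listed start and end cannot be the whole transcript. The share was alike in both sets, 19.2% here and 20.7% of all other lncRNAs. Levels were low. The median of the mean FPKM (fragments scaled to transcript length and to the mapped reads of the library) was 0.337, beside 0.258 for all other lncRNAs, and 8 of the 52 averaged at least 1 FPKM. Every library held a value above 0 for 24 of them, 13 were above 0.1 FPKM in every library, and 4 passed 0.1 FPKM in 1 library only.

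As a group the lncRNAs of the region were lowest at birth and highest at D180. Their summed level was 6.72 and 8.01 FPKM in the pigs at D0, 11.0 and 9.96 at D7, 19.8 and 19.8 at D28, 70.4 and 81.4 at D180, and 31.5 and 32 at Y2. As deposited, the pigs of each age did not overlap with those of any other age. The mean was highest at D180 for 38 of the 52, or 73.1%, which is close to the 67.7% of all other lncRNAs. All 4 late libraries lay above all 6 suckling libraries for 20 of the 52, and the share of all lncRNAs that did so was 38.7%. In no lncRNA of the region did all late libraries lie below all suckling ones, and 0.875% of all lncRNAs did.

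**Figure D1:**
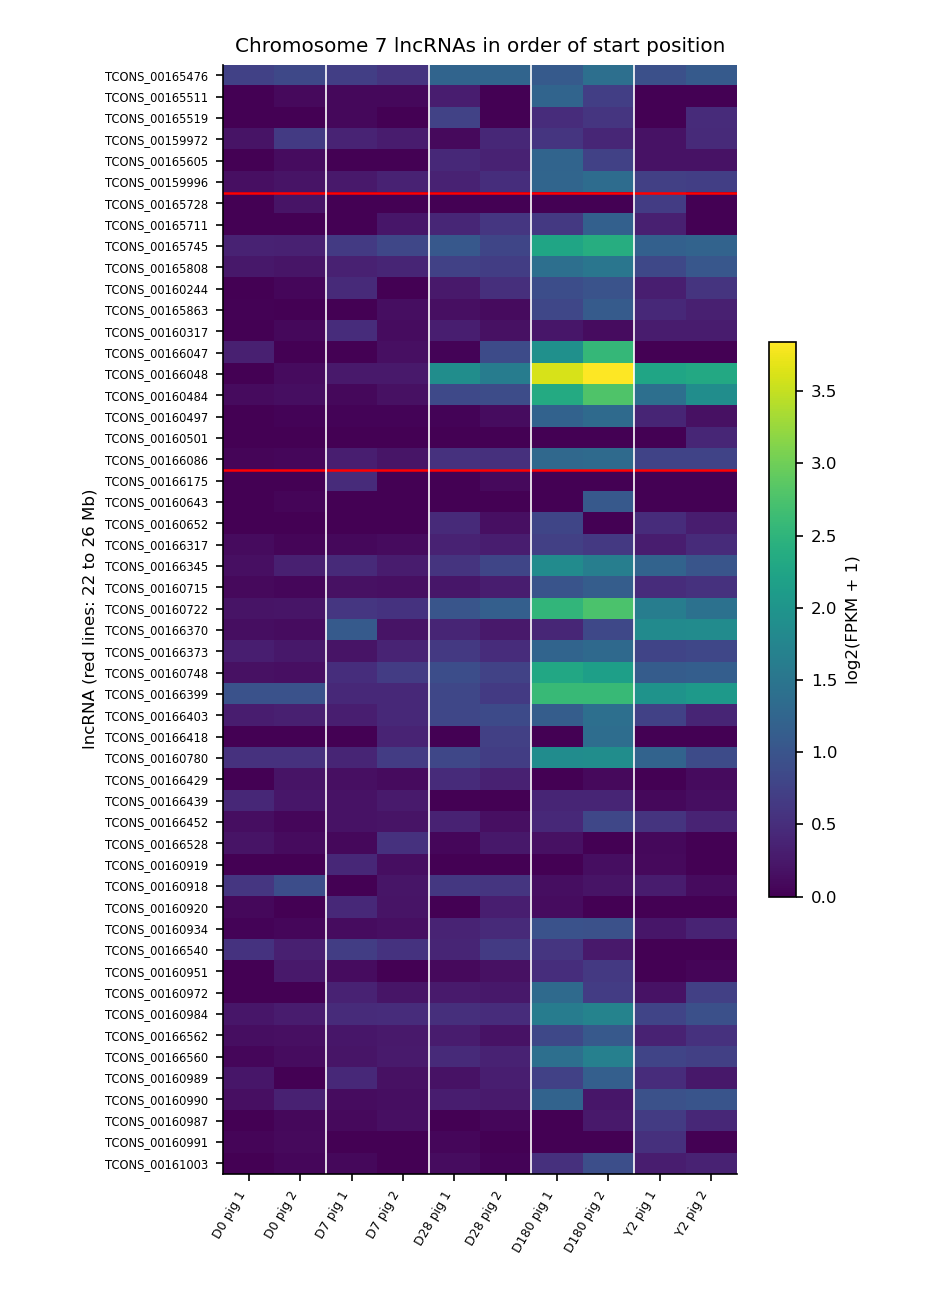
Heat map of log2(FPKM + 1) for the 52 lncRNAs, in order of start position from top to bottom, in the 10 libraries, with the 13 at 22 to 26 Mb between red lines. The brightest row is TCONS_00166048 in SLA-DRB1, at 11.3 and 13.3 FPKM at D180, and most rows are brightest in the D180 columns.

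The scale of the values bears on each of these comparisons. Beta-globin (HBB) alone stood at 473197 and 470930 FPKM at D0 and at 133644 and 111246 at D180, and the 10 most abundant mRNAs took between 68.1% and 90.7% of the summed mRNA FPKM of a library. When such RNAs take less of a library, the FPKM of all others rises. A median-of-ratios scaling on the mRNAs, which assumes that most of them do not change, gave factors from 0.437 at D0 to 3.03 at D180. It moved the median late to suckling change of all lncRNAs from 0.36 to 0.07 and that of all mRNAs from 1.11 to 0.02 on the log2(FPKM + 1) scale. Changes are therefore given below on both scales, as deposited and after this scaling. FPKM values, and whether ages overlap in them, are as deposited unless the scaling is named.

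Few lncRNAs of the region were called as changed within the suckling period, which does not show that the others did not change. From D0 to D7, 0 of 52 rose and 1 fell in limma with Benjamini-Hochberg adjustment over all lncRNAs at an adjusted p of at most 0.05, where 0.875% of all lncRNAs rose and 0.992% fell. At an unadjusted p under 0.05, 6 were higher. After the median-of-ratios scaling 4 rose and 2 fell, beside 6.05% and 4.12% of all lncRNAs. From D7 to D28, 3 rose, beside 4.24% of all lncRNAs. These were TCONS_00166048, TCONS_00165476 and TCONS_00160722, and only the first kept its call with each pig left out in turn, while the other 2 lost theirs without any 1 pig of D0, D7 or D28. None fell in that step by the adjusted test, beside 1.01% of all lncRNAs, whereas 2 were lower and 16 higher at an unadjusted p under 0.05. After the scaling 1 rose and 0 fell, beside 1.92% and 4.42%. These shares were near those of all lncRNAs.

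The large step came between D28 and D180. In limma 31 of the 52 rose and 2 fell, where 55.8% of all lncRNAs rose and 2.79% fell. From D180 to Y2, 31 fell and 2 rose, beside 43.3% and 3.11% of all lncRNAs. The late period against the suckling period gave 34 that rose and 3 that fell, beside 62.3% and 3.72%. The median change between the periods was 0.43, beside 0.36 for all lncRNAs. After the median-of-ratios scaling these counts were 3 and 1 from D28 to D180, 0 and 0 from D180 to Y2, and 8 and 4 between the periods. All lncRNAs then gave 3.82% and 2.14%, 0.807% and 0.353%, and 13.3% and 6.69%. As deposited, 59.6% of the 52 fell from D180 to Y2, above the 43.3% of all lncRNAs, a difference that was not tested. The other shares for the region as a whole were near those of all lncRNAs. Removing the 10 most abundant mRNAs from the total instead gave 26 that rose and 3 that fell between the periods, beside 50.1% and 5.16%.

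The study's further limit, a log2 change of at least 1.5, left few of these calls. The study set it on its own fold changes, whereas on log2(FPKM + 1) it acts mainly as a limit on abundance. The mean FPKM of TCONS_00165745, for example, was 4.42 times as high at D180 as at D28, yet its change of 1.40 missed the limit. From D28 to D180, 5 rose and 0 fell, beside 3.63% and 0.387% of all lncRNAs, and from D180 to Y2, 1 fell and 0 rose, beside 0.605% and 0.101%. Between the periods 3 rose and 0 fell, beside 1.77% and 0.269%. None passed from D0 to D7 (0.118% of all lncRNAs rose and 0.219% fell) or from D7 to D28 (0.202% and 0.118%), where the same limma fit without the limit gave the calls above.

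The 13 lncRNAs at 22 to 26 Mb held a share of the region's output that was lowest at D0 and highest at D180. Their summed level was 0.884 and 0.962 FPKM at D0, 2.14 and 2.06 at D7, 6.65 and 6.82 at D28, 28.7 and 36.8 at D180, and 10.2 and 11.2 at Y2. As a share of the sum over all 52 in the same library, which does not depend on the scaling, this was 13.2% and 12% at D0, 19.4% and 20.6% at D7, 33.6% and 34.4% at D28, 40.8% and 45.2% at D180, and 32.3% and 35.1% at Y2. The share was higher at each age than at the one before up to D180, and the pigs at D28 and Y2 overlapped. One transcript, TCONS_00166048, accounted for part of it. Without that transcript the share was 13.1% and 11% at D0, 18% and 19.1% at D7, 23.1% and 26.8% at D28, 29.5% and 34.4% at D180, and 23.1% and 25.9% at Y2.

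Between the periods, 9 of the 13 rose and 0 fell in limma, which is 69.2% beside the 62.3% of all lncRNAs. Their median change was 0.73, against 0.40 for the other 39 and 0.36 for all lncRNAs. After the median-of-ratios scaling 4 of the 13 rose and 0 fell, or 30.8% beside 13.3% of all lncRNAs, and their median change was 0.11 beside 0.07. These 4 lay in SLA-DRB1, in SLA-DQA1, in the SLA-DRB5 locus and in LTA, and the difference of this stretch from the rest was not tested.

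**Figure D2:**
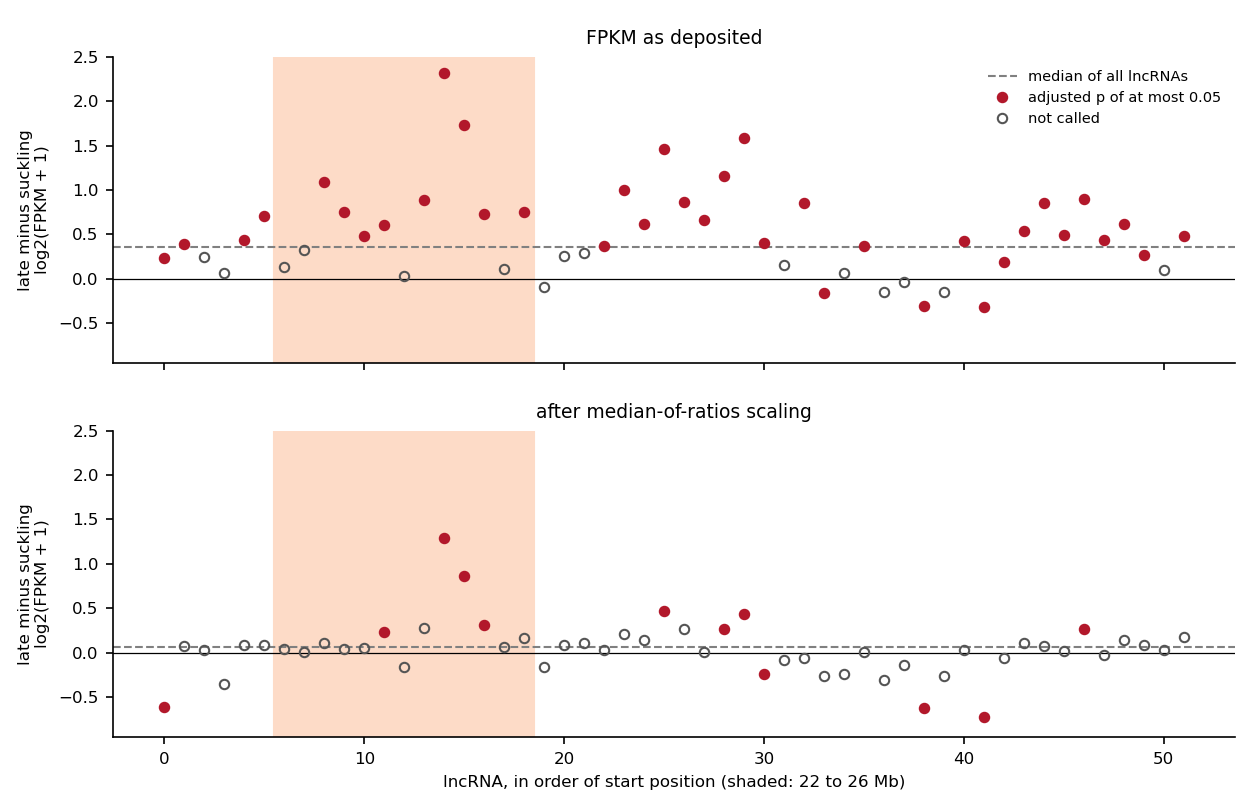
Late minus suckling difference of log2(FPKM + 1) for each of the 52 lncRNAs in order of start position, as deposited (top) and after median-of-ratios scaling (bottom), with filled points for an adjusted p of at most 0.05 and the 13 at 22 to 26 Mb shaded. As deposited 34 are called higher; after scaling 8 remain higher, led by 2.32 becoming 1.29 for TCONS_00166048, and 4 are called lower.

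From D28 on, the class II end of the stretch, at 24 to 26 Mb, had the higher sum, which at D28 rested on TCONS_00166048. The 6 lncRNAs there summed to 0.394 and 0.261 FPKM at D0, below the 0.490 and 0.701 of the 7 at 22 to 24 Mb. At D180 they summed to 20.9 and 27.2, above 7.79 and 9.58. At D28 they summed to 4.02 and 4.30, beside 2.63 and 2.52, and at Y2 to 6.45 and 7.84, beside 3.74 and 3.40. Without TCONS_00166048 the sum at 24 to 26 Mb was the lower in both pigs at D28 and in the first pig at Y2. TCONS_00166048 (chr7:24910767-24911360, minus strand) lies within SLA-DRB1, the gene for a beta chain of the class II molecule DR. It was at 0.00582 and 0.0787 FPKM at D0, 0.194 and 0.195 at D7, 2.70 and 2.07 at D28, 11.3 and 13.3 at D180, and 3.79 and 3.98 at Y2. The ages did not overlap, and of the adjacent ages only D0 and D7 were not told apart in limma (0.20 on the log2 scale, SE 0.13, adjusted p = 0.647). It rose by 1.497 from D7 to D28 (SE 0.13, adjusted p = 0.00208) and by 1.98 from D28 to D180 (adjusted p = 2.29e-05), and fell by 1.44 from D180 to Y2 (adjusted p = 0.000329). After the median-of-ratios scaling the rise to D28 was 1.31 (adjusted p = 0.00148) and the rise to D180 was 0.60 (adjusted p = 0.0365), whereas the later difference was -0.59 (adjusted p = 0.089). It was the one lncRNA of the region whose rise from D7 to D28 passed the test on both scales.

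A short neighbour, TCONS_00166047 (chr7:24910620-24910688, minus strand), lies at lower coordinates within SLA-DRB1, with 78 nt between the listed spans. It was at 0.263 and 0 FPKM at D0, 0 and 0.113 at D7, 0.0228 and 0.839 at D28, 2.82 and 4.91 at D180, and listed at 0 in both pigs at Y2. The D180 pigs stood alone, and the pigs of the other ages overlapped. It rose by 1.79 from D28 to D180 in limma (adjusted p = 0.00133) and fell by 2.25 to Y2 (adjusted p = 0.00098), and neither passed after the scaling (0.72, adjusted p = 0.248, and -1.19, adjusted p = 0.169). The 2 transcripts of one gene thus differed at Y2, where TCONS_00166047 was listed at 0 and TCONS_00166048 was not.

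TCONS_00160484 (chr7:24956714-24957021, plus strand) lies within SLA-DQA1, which encodes the alpha chain of the class II molecule DQ. It was at 0.0859 and 0.109 FPKM at D0, 0.0537 and 0.123 at D7, 0.805 and 0.852 at D28, 4.08 and 5.91 at D180, and 1.64 and 2.68 at Y2. D0 and D7 overlapped, and each later age stood clear of the others. Its rise between the periods was 1.73 in limma (SE 0.12, adjusted p = 1.07e-05) and 0.86 after the scaling (adjusted p = 0.00204). The rise from D7 to D28 was 0.75 and missed the threshold (adjusted p = 0.0658).

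TCONS_00160497 (chr7:24997930-24997961, plus strand), with a listed span of 32 nt, lies where RefSeq places both the pseudogene SLA-DRB5 and the coding gene LOC100513097. Its values were 0 and 0.0234 FPKM at D0, 0.0243 and 0.0251 at D7, 0.0262 and 0.0964 at D28, 1.32 and 1.52 at D180, and 0.317 and 0.132 at Y2. Every late value lay above every suckling value. The rise from D28 to D180 was 1.19 (adjusted p = 3.60e-05) and 0.48 after the scaling (adjusted p = 0.0163), both in limma. DR genes of the pig include near-identical copies, and reads from one copy can be counted for another, so the assignment of the 3 transcripts in DR genes is uncertain.

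Of the other class II lncRNAs, TCONS_00166086 (chr7:25041515-25043068, minus strand) lies between SLA-DOB and TAP2, 2017 nt from the latter, and overlaps no RefSeq gene. It was at 0.0387 and 0.0496 FPKM at D0, 0.248 and 0.158 at D7, 0.468 and 0.449 at D28, 1.45 and 1.52 at D180, and 0.704 and 0.705 at Y2. The 5 ages did not overlap. Its change between the periods was 0.75 in limma (adjusted p = 5.47e-06) and 0.17 after the scaling (adjusted p = 0.0618). TCONS_00160501, on the opposite strand of the same place, was at 0.337 FPKM in 1 pig at Y2 and at 0 in the other 9.

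**Figure D3:**
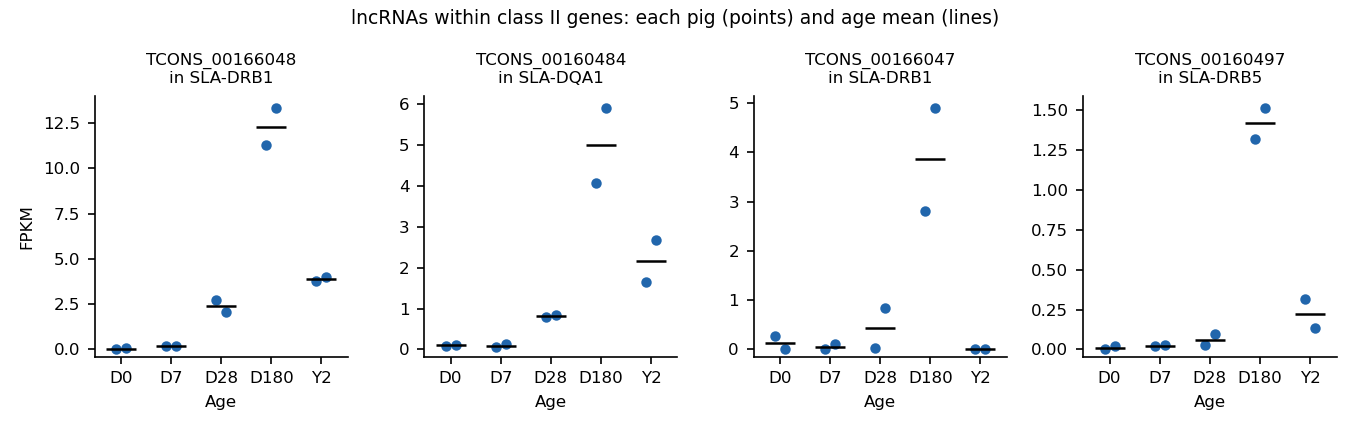
FPKM of the lncRNAs within SLA-DRB1, SLA-DQA1 and the SLA-DRB5 locus at the 5 ages, with a point for each pig and a line for the mean of an age; each panel has its own vertical axis. All are highest at D180, and TCONS_00166047 is listed at 0 at Y2 while TCONS_00166048 is at 3.79 and 3.98.

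The class I and class III stretch, from 22 to 24 Mb, held 7 lncRNAs with summed levels of 7.79 and 9.58 FPKM at D180. TCONS_00165745 (chr7:23023513-23047651, minus strand) lies in TRIM39, which encodes a ubiquitin ligase. It was at 0.285 and 0.282 FPKM at D0, 0.568 and 0.761 at D7, 1.08 and 0.747 at D28, 3.80 and 4.26 at D180, and 1.27 and 1.34 at Y2. D7 and D28 overlapped, and D180 stood clear above. It rose between the periods by 1.09 in limma (adjusted p = 8.19e-06), which was 0.11 after the scaling (adjusted p = 0.316).

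Within the class I genes themselves the lncRNAs were low and often at 0. TCONS_00165711 in SLA-2 was at 0 in both pigs at D0, at 0 and 0.178 FPKM at D7, 0.329 and 0.522 at D28, 0.548 and 1.26 at D180, and 0.260 and 0 at Y2. Its fall from D180 to Y2 passed the test (adjusted p = 0.0166) and its late to suckling change of 0.33 did not (adjusted p = 0.0504). TCONS_00165728 lies where RefSeq places both SLA-1 and the coding gene LOC100513601. It was above 0 in only 2 libraries, at 0.153 FPKM in 1 pig at D0 and 0.610 in 1 at Y2.

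In the class III stretch, TCONS_00165863 (chr7:23696660-23696744, minus strand) lies in LTA, the gene for the lymphocyte cytokine lymphotoxin alpha. It was at 0.0165 and 0 FPKM at D0, 0 and 0.101 at D7, 0.112 and 0.0779 at D28, 0.764 and 1.16 at D180, and 0.354 and 0.263 at Y2. All late values lay above all suckling values, and the change between the periods was 0.61 in limma (adjusted p = 0.000129) and 0.24 after the scaling (adjusted p = 0.0350). The LTA mRNA itself was at 0 in both pigs at D0, and at 0.0779 and 0.0204 FPKM at D7, 0.193 and 0.218 at D28, 0.497 and 0.656 at D180, and 0.432 and 0.635 at Y2. TCONS_00160317 in CLIC1, which encodes an intracellular chloride channel protein, stayed between 0 and 0.401 FPKM and was called in no comparison. A pair at LOC100153163, on opposite strands, was highest at D180: TCONS_00165808 at 1.63 and 1.84 FPKM and TCONS_00160244 at 0.874 and 0.973. TCONS_00165808 rose by 0.74 from D28 to D180 (adjusted p = 0.000315), but was at -0.06 after the scaling.

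The mRNAs of the complex give the setting. Class II mRNAs with a symbol were SLA-DQB1, SLA-DMA, SLA-DMB and SLA-DOA, 4 of a list of 8, and the class I list of 11 had none, so class I mRNAs were not analysed here. All 4 rose between the periods in limma, where 92.7% of all mRNAs rose, with a median change of 2.60 beside 1.11. After the scaling all 4 still rose, where 25% of all mRNAs did, with a median of 0.93 beside 0.02. SLA-DQB1, the partner chain of SLA-DQA1, was at 3.45 and 3.49 FPKM at D0, 11.2 and 10.7 at D7, 45.3 and 44.3 at D28, 153 and 140 at D180, and 76.4 and 70.7 at Y2. It rose at each step up to D180 as deposited, and after the scaling by 1.33 to D7 (adjusted p = 1.45e-05), by 1.07 to D28 (adjusted p = 3.36e-05) and by 0.13 to D180, which did not pass (adjusted p = 0.310).

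The antigen processing genes TAP1, TAP2, TAPBP, PSMB8 and PSMB9, which lie in or near the class II stretch and supply peptides to class I molecules, are set beside them. All 5 rose between the periods as deposited, where 92.7% of all mRNAs did, with a median of 1.69 beside 1.11. After the scaling 2 of the 5 rose, TAP1 by 0.22 and TAPBP by 0.22, with a list median of 0.02, which was also the median of all mRNAs. In the single steps after the scaling, 5 of 5 rose from D0 to D7, where 17.8% of all mRNAs did, 4 rose from D7 to D28, beside 18.4%, and 4 fell from D28 to D180, beside 18%. The class III list held 39 symbols, some of them alternative names, and 22 were paired with an mRNA. All 22 rose between the periods as deposited, again where 92.7% of all mRNAs did, with a median of 1.23. After the scaling 5 rose, among them complement C2 by 0.66 and LTA by 0.20, and 4 fell, among them the chaperone gene BAG6 by 1.41, beside 25% and 26.1% of all mRNAs. As deposited, 3.67% of all mRNAs fell.

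B cells and monocytes are among the blood cells that express class II genes, and the markers of both moved with age in these libraries. The 4 B cell markers summed to 5.0 and 5.32 FPKM at D0, 7.39 and 8.59 at D7, 22.2 and 18.4 at D28, 82.1 and 87.6 at D180, and 48.8 and 45.6 at Y2. All 4 rose between the periods as deposited and all 4 after the scaling, where 92.7% and 25% of all mRNAs rose, with medians of 2.27 and 0.67. The 4 monocyte markers summed to 78 and 88.9 FPKM at D0, 46.9 and 50.3 at D7, 31.0 and 32.6 at D28, 163 and 166 at D180, and 80.6 and 76.1 at Y2. After the scaling 2 of these 4 rose between the periods and 1 fell. In whole blood, fewer cells of a type and less RNA per cell cannot be told apart, and the part of either marker list in the class II values was not tested.

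Other blood cell markers moved as well, and those called measured are the ones whose symbol was paired with an mRNA. The 3 measured T cell markers of 4 summed to between 14.8 and 21.8 FPKM at D0 and D7 and to 131 and 133 at D180, and the 4 NK cell markers to between 10.7 and 12.2 at D0 and D7 and 91.1 and 104 at D28. The 2 measured neutrophil markers of 4 were lowest at D28, at 10.7 and 11 FPKM, and highest at D180, at 117 and 115. The 2 measured platelet markers of 4 summed to 188 and 176 FPKM at D180 and 52.4 and 56.2 at Y2. The 5 measured red cell markers of 7 went from 482336 and 480313 FPKM at D0 to 136186 and 113579 at D180. No measured marker was at 0 in any library. After the scaling, from D28 to D180, none of the T cell markers rose and 2 of 3 fell, with a median of -0.53, and all 4 NK cell markers fell, with a median of -1.33, where 18% of all mRNAs fell. Between the periods 1 T cell marker rose and 1 fell, 1 NK cell marker rose and 2 fell, 1 neutrophil marker rose and 1 fell, and both platelet markers and all 5 red cell markers fell, where 25% of all mRNAs rose and 26.1% fell. The part of these lists in the lncRNA values was not tested.

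Before the SLA genes, from 20 to 22 Mb, 6 lncRNAs were listed and 4 rose and 0 fell between the periods as deposited, beside 62.3% and 3.72% of all lncRNAs. After the scaling 0 rose and 1 fell, beside 13.3% and 6.69%. TCONS_00165476 (chr7:20783504-20784171, minus strand) lies in the pseudogene LOC110261485 and was detected in every library. It was at 0.676 and 0.789 FPKM at D0, 0.641 and 0.507 at D7, 1.36 and 1.36 at D28, 1.12 and 1.65 at D180, and 0.920 and 1.12 at Y2. Its rise of 0.23 between the periods (adjusted p = 0.0304) turned to -0.61 after the scaling (adjusted p = 0.00217), both in limma. The step from D7 to D28 was a rise of 0.58 as deposited (adjusted p = 0.0388) and 0.18 after the scaling (adjusted p = 0.440).

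TCONS_00159996 (chr7:21981437-21988237, plus strand) overlaps no RefSeq gene, and the study pairs it with ZKSCAN8, a zinc finger gene. It rose from 0.118 and 0.153 FPKM at D0 to 1.38 and 1.58 at D180 and was at 0.665 and 0.634 at Y2. Its late to suckling change was 0.70 (adjusted p = 1.53e-05) and 0.08 after the scaling (adjusted p = 0.332). TCONS_00165519 in BTN2A2, a butyrophilin gene of the B7 family, was above 0 in 5 libraries, at up to 0.699 FPKM, and was called in no comparison.

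After the SLA genes, few lncRNAs were listed from 26 to 30 Mb, and these were often at 0. There were 3, 1 in KHDRBS2 and 2 with the same listed span in ITPR3, an endoplasmic calcium channel gene, and none was called between the periods. The ITPR3 pair alternated. At D180 TCONS_00160652 was at 0.743 FPKM in the first pig and 0 in the second, and TCONS_00160643 was at 0 in the first and 1.11 in the second, so that neither alone measures that place.

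The stretch from 30 to 32 Mb held 14 lncRNAs, of which 11 rose and 1 fell between the periods as deposited, beside the 62.3% and 3.72% of all lncRNAs. After the scaling 3 rose and 1 fell, beside 13.3% and 6.69%, with a median of 0.02. Its summed level was 3.0 and 2.97 FPKM at D0, 4.09 and 4.03 at D7, 6.70 and 6.80 at D28, 24.2 and 27.5 at D180, and 14.1 and 13.0 at Y2. The highest of them, TCONS_00166399 (chr7:31540868-31574772, minus strand), overlaps FKBP5, a co-chaperone of the glucocorticoid receptor that glucocorticoids induce. It was at 0.946 and 0.960 FPKM at D0, 0.357 and 0.361 at D7, 0.762 and 0.567 at D28, 5.0 and 5.0 at D180, and 2.92 and 3.17 at Y2. As deposited the 5 ages did not overlap, and D7, not D0, was the lowest. After the scaling D7 and D28 overlapped, and the pigs at D0 lay above those of every other age.

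TCONS_00166399 was the one lncRNA of the region that fell from D0 to D7 in limma as deposited, and after the scaling TCONS_00160918 fell too, by 1.14 (adjusted p = 0.00779). The fall was 0.52 as deposited (SE 0.09, adjusted p = 0.0369) and 0.89 after the scaling (adjusted p = 0.00199). As deposited, the call was lost when any 1 of the 4 libraries of those ages was left out. From D28 to D180 it rose by 1.85 (adjusted p = 1.89e-05) and by 0.69 after the scaling (adjusted p = 0.00888). From D180 to Y2 it fell by 0.57 as deposited (adjusted p = 0.00187) and was at 0.11 after the scaling (adjusted p = 0.679). The FKBP5 mRNA stood at 3.33 and 5.09 FPKM at D0, 5.19 and 4.99 at D7, 9.73 and 6.82 at D28, 32 and 32.3 at D180, and 17.3 and 14.6 at Y2. The lncRNA was thus at 28.4% and 18.9% of the mRNA FPKM at D0 and at 6.88% and 7.25% at D7.

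TCONS_00160722 (chr7:31095674-31196511, plus strand) had the longest span of the region, across TCP11, SCUBE3 and ZNF76 and into DEF6, which encodes an exchange factor of lymphocytes. It was at 0.148 and 0.161 FPKM at D0, 0.521 and 0.479 at D7, 1.02 and 1.24 at D28, 4.80 and 5.75 at D180, and 2.09 and 1.70 at Y2. The ages did not overlap. The rise between the periods was 1.46 in limma (adjusted p = 3.66e-06) and 0.47 after the scaling (adjusted p = 0.00495). On the opposite strand of this place, TCONS_00166370 went another way. It was at 0.0997 and 0.0960 FPKM at D0, 1.13 and 0.155 at D7, 0.321 and 0.20 at D28, 0.333 and 0.783 at D180, and 2.59 and 2.60 at Y2. Y2 stood clear above all other ages, and the rise from D180 was 1.22 (SE 0.26, adjusted p = 0.0073) as deposited and 1.15 after the scaling (adjusted p = 0.224). TCONS_00166373, which shares its locus, was highest at D180 instead, at 1.35 and 1.5 FPKM.

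Around these, TCONS_00160748 (chr7:31262405-31262451, plus strand) in PPARD, a nuclear receptor gene for fatty acids, was at 0.131 and 0.120 FPKM at D0, 0.411 and 0.599 at D7, 0.879 and 0.699 at D28, 3.93 and 3.51 at D180, and 1.16 and 1.22 at Y2. Its late to suckling change was 1.15 (adjusted p = 4.54e-06) and 0.27 after the scaling (adjusted p = 0.0307). TCONS_00160780 in MAPK14, the p38 kinase gene, stood between 0.320 and 0.768 FPKM in the suckling period and at 2.64 and 2.71 at D180. Its change of 0.85 (adjusted p = 9.62e-05) was -0.06 after the scaling (adjusted p = 0.660). TCONS_00166345, whose listed span of 136 nt overlaps no RefSeq gene, rose by 1.00 (adjusted p = 3.23e-05). TCONS_00160715 in ANKS1A rose by 0.62 (adjusted p = 1.65e-05). After the scaling the changes of both, 0.21 and 0.15, did not pass. TCONS_00166429, whose listed span of 164 nt lies 4620 nt from MAPK14, was at 0.385 and 0.282 FPKM at D28 and at 0 and 0.0660 at D180. This fall of 0.37 (adjusted p = 0.0113) did not pass after the scaling (-0.40, adjusted p = 0.118).

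From 32 to 35 Mb, 16 lncRNAs were listed, of which 10 rose and 2 fell between the periods as deposited, beside 62.3% and 3.72% of all lncRNAs. After the scaling 1 rose and 2 fell, beside 13.3% and 6.69%, with a median of 0.02. The highest that rose were TCONS_00160984 in ZFAND3, a zinc finger gene, and TCONS_00166560 in BTBD9. TCONS_00160984 was at 0.171 and 0.231 FPKM at D0, 0.385 and 0.408 at D7, 0.436 and 0.397 at D28, 2.06 and 2.30 at D180, and 0.733 and 0.907 at Y2. Its change was 0.85 (adjusted p = 6.43e-06) and 0.08 after the scaling (adjusted p = 0.316). For TCONS_00166560 the change was 0.90 (adjusted p = 1.43e-05) and 0.26 after the scaling (adjusted p = 0.0175).

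Of the 3 lncRNAs that fell between the periods, 2 lay in this last stretch. TCONS_00160918 (chr7:32750281-32755725, plus strand), in the RefSeq lncRNA gene LOC102163428 and 32521 nt from the kinase gene PIM1, was at 0.524 and 0.872 FPKM at D0, 0 and 0.168 at D7, 0.543 and 0.508 at D28, 0.10 and 0.151 at D180, and 0.220 and 0.0865 at Y2. D0 and D28 were high and the other ages overlapped below. Its fall between the periods was 0.31 in limma (adjusted p = 0.00996) and 0.62 after the scaling (adjusted p = 0.00902). The listed span of TCONS_00166540, of 115 nt, lies 6904 nt from RNF8, a ubiquitin ligase gene of DNA repair. TCONS_00166540 was at 0.477 and 0.262 FPKM at D0, 0.615 and 0.477 at D7, 0.312 and 0.565 at D28, and 0.505 and 0.195 at D180, and was listed at 0 in both pigs at Y2. It fell between the periods by 0.32 (adjusted p = 0.0155) and by 0.73 after the scaling (adjusted p = 0.00479). At the locus LOC110261680, TCONS_00160987 rose from D180 to Y2 by 0.41 (adjusted p = 0.0219), from 0 and 0.20 FPKM to 0.582 and 0.339, while TCONS_00160989 at the same locus fell by 0.58 (adjusted p = 0.0263). Neither passed after the scaling, at 0.32 (adjusted p = 0.182) and -0.15 (adjusted p = 0.841).

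The remaining lncRNAs added smaller values. Of the 52, 15 were not called between the periods, with changes between -0.14 and 0.33, and the highest single value among these 15 was 1.59 FPKM, for TCONS_00166418 near SRPK1 in 1 pig at D180. Of the others not described above, TCONS_00166403 in LHFPL5 rose as deposited by 0.40 (adjusted p = 0.00375) and was called lower after the scaling, at -0.24 (adjusted p = 0.0439).

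A ratio of a lncRNA to the mRNA of an overlapping or paired gene in the same library does not depend on the scaling. It could be formed for 11 pairs, 8 by RefSeq overlap and 3 that the study lists as overlapping and correlated in these same libraries, where neither value was 0. Except for TCONS_00166399, the lncRNAs of the 8 RefSeq pairs also stand in the study's tables, so these 8 are not free of the study's choice. TCONS_00160722 was at 14.4% to 63.7% of the ZNF76 mRNA FPKM in the suckling libraries and at 94.3% to 134% in the late ones, a difference of 1.72 in the mean log2 ratio. TCONS_00160984 went from 4.80% to 7.91% of the ZFAND3 mRNA to 8.73% to 12.8%, a difference of 0.77. In both pairs no late library overlapped a suckling one. Against DEF6, which it also overlaps, TCONS_00160722 was at 48.4% to 173% in the suckling and 38.8% to 84.5% in the late libraries, a difference of -0.32 (exact permutation p = 0.486). For the ZNF76 and ZFAND3 pairs the two-sided exact permutation test over the 10 libraries gave p = 0.00952 each, the smallest it can give, and 0.0524 adjusted over the 11 pairs, or 0.0381 over the 8 pairs by RefSeq overlap. For every pair this test shuffled single libraries between the periods and took no account of age. The ZNF76 ratio was 16.5% and 14.4% at D0 and 63.7% and 37.4% at D7. Such a p therefore does not measure the spread between pigs of an age alone.

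For TCONS_00166048 the study's partner is ENSSSCG00000001455, which had no symbol in the tables used here. The lncRNA was at 0.353% and 3.91% of that mRNA at D0, 4.57% and 4.08% at D7, 12.3% and 9.87% at D28, 14.5% and 17.9% at D180, and 11% and 12.3% at Y2. The difference between the periods was 1.84 in the mean log2 ratio (exact permutation p = 0.0286, 0.105 adjusted over the 11 pairs), and D28 overlapped with Y2. Part of its size rests on the ratio of 0.353%, from a lncRNA value of 0.00582 FPKM in 1 pig at D0. TCONS_00160715 gave 0.52 against ANKS1A (exact permutation p = 0.0381, adjusted 0.105) and -0.0015 against BLTP3A (exact permutation p = 0.895). In the other 7 pairs, those with DEF6 and BLTP3A among them, the adjusted p was between 0.335 and 0.895, with differences from -0.32 to 0.65.

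**Figure D4:**
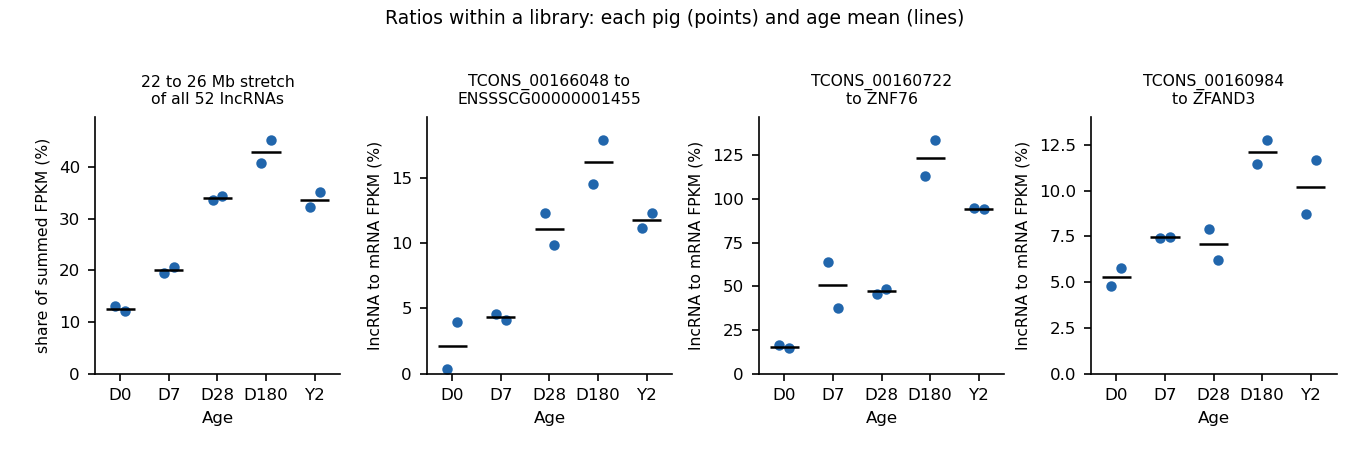
Ratios formed within a library at the 5 ages, as percent, with a point for each pig and a line for the mean of an age: the share of the 13 lncRNAs at 22 to 26 Mb in the summed FPKM of all 52, and the FPKM of TCONS_00166048, TCONS_00160722 and TCONS_00160984 relative to the mRNA named in the panel. The first share runs from 12% at D0 to 45.2% at D180, and the ZNF76 and ZFAND3 ratios are higher in every late library than in every suckling one.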

How the data were processed

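Ribosomal-RNA-depleted, strand-specific libraries of pig blood were aligned to Sscrofa11.1. The authors deposited FPKM for 12354 mRNAs and, from the same reads, for 5946 assembled lncRNAs. Every listed mRNA passed 0.5 FPKM somewhere among the 10 libraries, and every lncRNA 0.1 FPKM. The submitters' processing notes name CASAVA 1.8.2, HISAT2 2.0.4, StringTie 1.3.3 and Cufflinks 2.2.1. FPKM are relative to the mapped reads of a library, and the number of fragments behind a value is unknown, so precision rests on 2 pigs per age.

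Log2(FPKM + 1) values were compared between ages in R 4.3.3 with limma 3.58.1, with all 10 libraries, 5 ages as groups, a mean-variance trend, and two-sided tests with Benjamini-Hochberg adjustment over each whole table. A change understates that of low genes because of the pseudocount of 1. A call had an adjusted p of at most 0.05. The study's further limit, a log2 fold change of at least 1.5, was an alternative. The lowest p of an exact permutation test between 2 ages would be 0.333. The late against suckling contrast weighted the ages of a period equally. On simulated data with 200 changed rows of log2 change 2 between D28 and D180, limma recovered 191 of them among 5946 lncRNAs with 9 false calls, and 197 among 12354 mRNAs with 13. The changed rows were drawn from those above the median level, and no other row differed between ages. The recovery of smaller changes, or of lower lncRNAs, was therefore not measured.

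The members and gene lists were chosen with earlier results of these data known. Named lncRNAs were the 6 with the highest mean at 22 to 26 Mb and the 6 highest elsewhere, up to 3 rising and 3 falling calls per comparison, up to 12 overlapping a gene of the lists, and those in the study's tables. TCONS_00165728, TCONS_00160244, TCONS_00160317, TCONS_00160501, TCONS_00160643, TCONS_00166373, TCONS_00166403, TCONS_00166418, TCONS_00160989 and TCONS_00166560 were added after their values were seen. Symbols were found for 9735 of the 12354 mRNA identifiers in the reference tables, and gene positions came from RefSeq on Sscrofa11.1. The lists held class I, class II, class III, antigen processing and nearby signalling genes and blood cell markers.

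Alternatives were a pseudocount of 0.1, median-of-ratios factors from 11527 mRNAs above 0 in every library, removal of the 10 most abundant mRNAs from the total, a filter of 0.5 FPKM in 2 libraries, no trend, only the ages compared, 1 transcript per locus, a replicate block and each pig left out. The scalings of the mRNA lists, the scaling joined with a pseudocount of 0.1, the crossed block and the ratio test were chosen after seeing the data. Other steps ran in Python 3.11.15 with pandas 2.3.3, matplotlib 3.10.9, scipy 1.17.1 and numpy 2.4.6.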

Additional observations from a re-analysis of the deposited data

How the results depend on the processing

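The direction and number of calls rested above all on the scaling between libraries. With median-of-ratios scaling, the numbers of lncRNAs called higher and lower were 4 and 2 from D0 to D7, 1 and 0 from D7 to D28, 3 and 1 from D28 to D180, 0 and 0 from D180 to Y2 and 8 and 4 between the periods, the median change was 0.052, and 17 were highest at D180. With a pseudocount of 0.1 as well, the higher and lower calls were 7 and 2 to D7, 2 lower to D28, 2 and 1 to D180, 0 and 0 to Y2, and 9 were higher between the periods. Removing the 10 most abundant mRNAs gave 3 and 2 to D7, 1 higher to D28, 19 higher to D180, 10 lower to Y2 and a median of 0.21. A pseudocount of 0.1 alone gave 4 and 2 to D7, 10 and 1 to D28, 1 higher to Y2 and a median of 1.34. The filter gave 2 lower to D7, 8 higher to D28, 1 lower to D180, 1 higher to Y2 and a median of 0.62. Fits of only the ages compared gave 0 lower to D7, 0 higher to D28, and 1 higher and 14 lower to Y2, and between the periods this fit is the reported one. With the fold limit of 1.5 the calls were 0 lower to D7, 0 higher to D28, 5 and 0 to D180, 0 and 1 to Y2 and 3 and 0 between the periods, and 1 transcript per locus left 1 higher to Y2. Under the median-of-ratios scaling the sign turned for 6 of the 33 calls to D180, 1 of the 33 to Y2 and 5 of the 37 between the periods, called again or not. Among the lncRNAs chosen by the naming rule these were TCONS_00165476 between the periods (-0.61), TCONS_00165808 to D180 (-0.057), TCONS_00166399 to Y2 (0.11) and TCONS_00160780 between the periods (-0.060). With each pig left out in turn, higher and lower calls were 0 to 1 and 0 to 1 to D7, 1 to 5 and 0 to 1 to D28, 25 to 32 and 0 to 2 to D180, 1 to 3 and 25 to 31 to Y2, and 30 to 36 and 1 to 3 between the periods. The median stayed between 0.41 and 0.47, and 35 to 38 were highest at D180. The counts to D7 and D28 and those of lncRNAs lower to D180, higher to Y2 and lower between the periods moved by over 1.5 times with single pigs. Without the second D7 pig 1 rose to D7 and 1 fell to D28, without the first D28 pig 0 and without the second 1 fell to D180, without either D180 pig 5 rose to D28 and 1 fell to D180, without the first D180 pig 1 rose to Y2, and without the first Y2 pig 1 fell between the periods. Each call to D28 but that of TCONS_00166048 was lost without either pig of D0, D7 or D28. The cause of these shifts was not tested.

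Pigs that share a number across ages are not the same animal, and their deviations from the age means correlated between -0.271 and 0.146 over the lncRNAs and between -0.0819 and 0.0775 over the mRNAs, so the numbers do not pair them. A fit with the replicate number as a block gave 0 lower to D7 and 1 higher to D28, with 4 of 125 named results losing their call. With the pig numbers crossed at D7, the block gave 0 lower to D7. Of the 52, 44 averaged under 1 FPKM, and the number of fragments behind their values is not known.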

Other observations

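The signalling genes near the complex were measured as mRNAs for all 15 of their list. Between the periods all 15 rose in limma as deposited, beside 92.7% of all mRNAs, with a median change of 1.37 beside 1.11. After the median-of-ratios scaling 5 rose and 4 fell, beside 25% and 26.1% of all mRNAs, and the median was -0.03 beside 0.02. Those that rose were DEF6 by 0.75, the calcium channel gene ITPR3 by 0.64, PPARD by 0.33, the chromatin reader BRD2 by 0.30 and the kinase STK38 by 0.16. Those that fell were the kinase PIM1 by 1.22, the cell cycle inhibitor CDKN1A by 0.60, the splicing kinase SRPK1 by 0.54 and the p38 kinase MAPK14 by 0.36. PIM1, an abundant kinase mRNA of blood, was at 31.4 and 34.8 FPKM at D0, 51.1 and 46.7 at D180, and 64.1 and 63.4 at Y2, and so was higher at Y2 than at D180 in both pigs.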
